A study of Homo sapiens with 6 samples.

Results

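Keratins are the intermediate filament proteins of epithelial cells. Each filament unit pairs a type I keratin with a type II keratin, so the genes of both types are used in sets that mark the kind of epithelium. Simple and glandular epithelia, to which most lung adenocarcinomas belong, build their filaments mainly from KRT7, KRT8, KRT18 and KRT19, whereas stratified epithelia use KRT5, KRT14 and the differentiation keratins. The 10 keratin genes described here are the type II genes KRT3, KRT5, KRT7, KRT8, KRT80 and KRT81 and the type I genes KRT15, KRT17, KRT18 and KRT19. They were taken by gene symbol from a table of 28395 genes that lists 55 keratin genes, 26 of type II and 29 of type I.

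The data come from HCC827, an established human lung adenocarcinoma line whose EGFR gene has an activating deletion. Cells were exposed for 24 h to the vehicle DMSO (libraries DMSO1, DMSO2 and DMSO3) or to 1 μM erlotinib, an inhibitor of the EGFR kinase (libraries Erlo4, Erlo5 and Erlo6). The experiment asked which transcripts depend on EGFR activity in a line driven by it. Values are signal, that is, uniquely mapped reads on a gene divided by the size factor of the library. A library held between 20760204 and 24641819 reads on genes. The authors state that each experiment outside the animal studies was done independently 3 or more times, without naming these libraries. The labels do not say whether the 3 libraries of a condition came from separate cultures. The p-values therefore measure the spread between these libraries, which may be technical. In RNA from whole cultures, fewer cells using a gene and less RNA per cell cannot be told apart.

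The 10 genes were selected on their signal in these erlotinib and DMSO libraries, and those values are given as a description with no test. With erlotinib, 6 of the 10 (KRT7, KRT8, KRT15, KRT18, KRT19 and KRT80) lay below all 3 DMSO libraries in every erlotinib library. Only KRT3 of the 10 lay above them, and KRT5, KRT17 and KRT81 overlapped. Among the 14215 tested genes, those whose signal averaged at least 10 over the 6 libraries, 36.9% lay wholly below and 36.7% wholly above, and nothing is read from the counts of the 10 genes beside these. All 10 passed that minimum, 9 of them through their DMSO mean alone. KRT3 passed only through its erlotinib libraries.

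**Figure D1:**
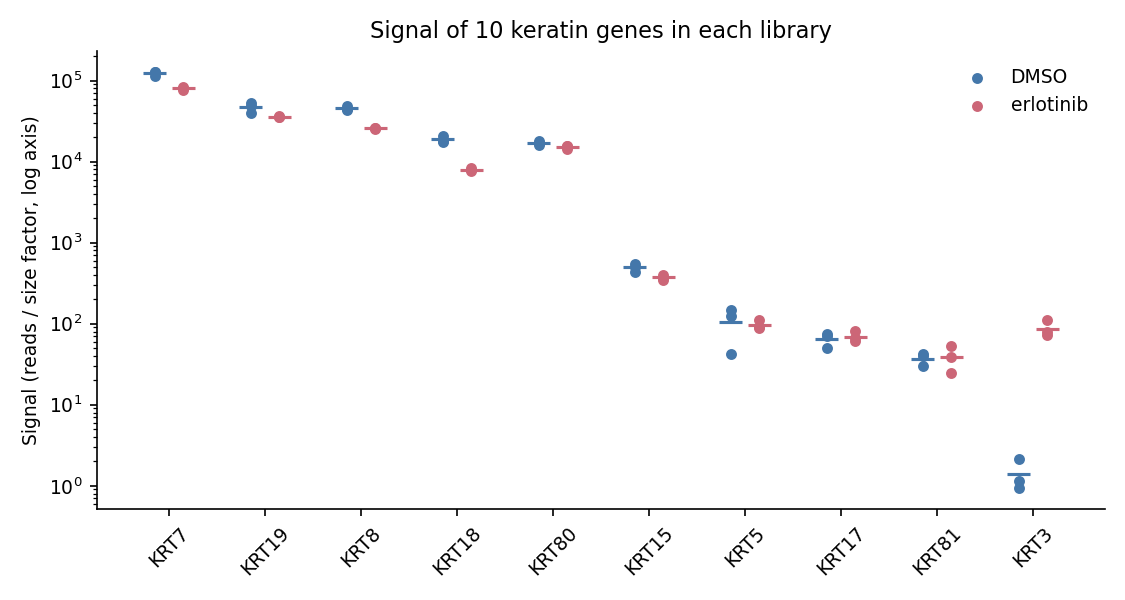
Signal of the 10 keratin genes (log axis, reads divided by the size factor) in each of the 3 DMSO and 3 erlotinib libraries, with points for libraries and a bar for the mean. KRT7 was the most abundant at a mean of 123686 in DMSO, and KRT3 moved from a mean of 1.40 to 86.9.

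Most keratin RNA came from KRT7, KRT8, KRT18, KRT19 and KRT80. KRT7 (Entrez gene 3855, chromosome 12, 52233243 to 52255853 of GRCh38, as are all positions below) is the type II keratin of ductal and glandular cells. Its signal was 127142, 114926 and 128989 in the DMSO libraries and 76688, 80598 and 82404 in the erlotinib libraries. The highest erlotinib library was thus well below the lowest DMSO library. The mean went from 123686 ± 7643 to 79897 ± 2922 (SD, n = 3 each), to 64.6% of DMSO, at a log2FC of -0.63 (SE 0.07). Such changes (log2FC, with the standard error as SE) are on the log2(signal + 1) scale.

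KRT8 (Entrez gene 3856, chromosome 12, 52897191 to 52949860) and KRT18 (Entrez gene 3875, chromosome 12, 52948855 to 52952906) are the type II and type I partners that simple epithelia use first in development. KRT8 had a signal of 49040.5, 43364 and 44460.3 in DMSO and 25891, 25253 and 25763 with erlotinib. Its mean went from 45622 ± 3011 to 25636 ± 338 (SD, n = 3 each), to 56.2% of DMSO, at a log2FC of -0.83 (SE 0.07). KRT18 had a signal of 20707, 18151 and 17407 in DMSO and 7770.1, 8253 and 7605 with erlotinib. Every erlotinib library held less than every DMSO library for both genes, and the 3 erlotinib libraries of each lay close together. The mean of KRT18 went from 18755 ± 1731 to 7876 ± 337 (SD, n = 3 each), to 42.0% of DMSO. Its log2FC of -1.25 (SE 0.07) was the lowest of the 10 genes.

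The partners therefore did not move by the same factor. The ratio of KRT8 to KRT18 signal per kilobase of transcript was 1.93 ± 0.0807 in DMSO and 2.58 ± 0.139 under erlotinib (SD, n = 3 each), with no overlap between the conditions. The genes are neighbours, and their RefSeq spans overlap by 1006 bases, so reads from that stretch cannot be told apart where strand is not used, and the counted strand is not given in the sources used here. Both also have many processed pseudogenes, 52 for KRT8 and 68 for KRT18 in RefSeq. Only 1 pseudogene of each is listed in the table, with at most 8 reads in any library. Of the 50-base windows of exon sequence, 41.1% of KRT8 and 34.95% of KRT18 had an identical copy elsewhere on the main chromosomes, against 6.43% and 0% of 100-base windows. A uniquely mapped count can lose reads in such windows, and what share was lost was not tested.

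KRT19 (Entrez gene 3880, chromosome 17, 41523617 to 41528308), a small type I keratin that pairs with KRT7 or KRT8, had a signal of 52669, 39530.4 and 49009 in DMSO and 35717, 36330 and 35253 with erlotinib. The DMSO libraries were widely spread, and DMSO2 came nearest to the erlotinib libraries. The mean went from 47069.6 ± 6781 to 35767 ± 539.9 (SD, n = 3 each), to 76.0% of DMSO, at a log2FC of -0.39 (SE 0.08). KRT80 (Entrez gene 144501, chromosome 12, 52168996 to 52192014), an epithelial type II keratin, had a signal of 17919, 15906 and 17046 in DMSO and 14162, 15622 and 15368 with erlotinib. Its groups were separated only narrowly, at 88.8% of DMSO and at a log2FC of -0.17 (SE 0.07). When total counts set the scale of each library, the log2FC of KRT80 was 0.008, the only change of sign among the 6 genes that were lower. That scaling moved the median log2FC over the tested genes from 0.02 to 0.19.

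The shares of reads show the same uneven movement without the deposited size factors. All keratin genes together took 1.10% ± 0.0684 of reads on genes in DMSO and 0.821% ± 0.0141 under erlotinib (SD, n = 3 each), and the conditions did not overlap. Within the keratin reads, the share of KRT7 was 48.6% ± 1.32 and 47.8% ± 0.852, and its libraries overlapped. KRT8 went from 17.9% to 15.3% and KRT18 from 7.37% to 4.71% of keratin reads. KRT19 went from 18.4% to 21.4% and KRT80 from 6.66% to 8.99%, and for these 4 genes the conditions lay apart. As a share of all reads on genes, KRT19 and KRT80 overlapped between the conditions.

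**Figure D2:**
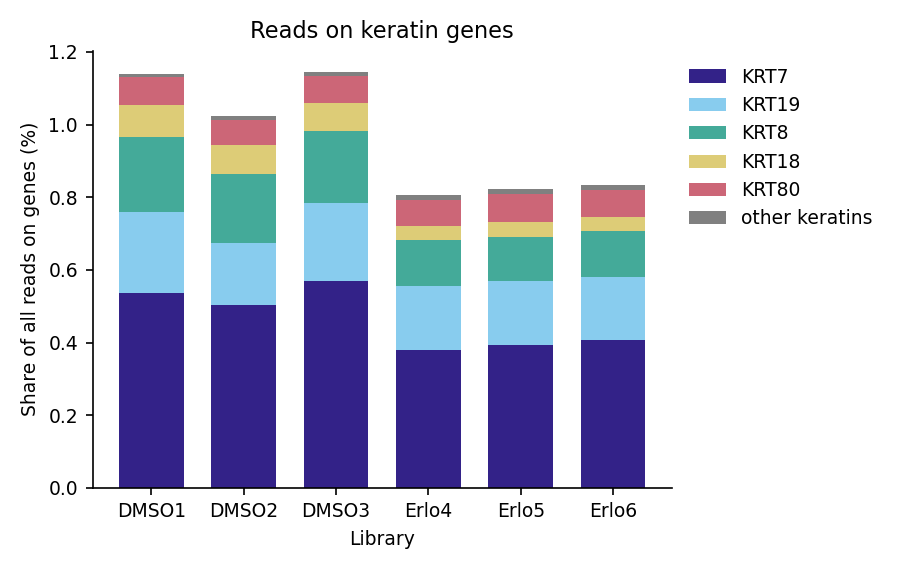
Share of all reads on genes (%) taken by keratin genes in each library, stacked by gene. All keratin genes together took 1.10% on average in DMSO and 0.821% with erlotinib, with KRT7 the largest block in every library.

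Summed by type, signal per kilobase was 106271 ± 6048 for type II and 48211 ± 5597 for type I genes in DMSO. With erlotinib these sums were 68151 ± 1886 and 32059.7 ± 622 (SD, n = 3 each). The ratio of type II to type I was 2.21 ± 0.141 and 2.13 ± 0.0808, and the libraries of the conditions overlapped. The ratio of KRT7 to KRT19 per kilobase was 2.27 ± 0.211 in DMSO and 1.91 ± 0.0823 with erlotinib, and here they did not. Ranked by mean signal per kilobase, the order in DMSO was KRT7 (76114), KRT19 (33863), KRT8 (25573), KRT18 (13273), KRT80 (4378), KRT15 (289.6), KRT5 (46.5), KRT17 (42.6), KRT81 (19.2) and KRT3 (0.604). Of neighbours in that order, KRT5 and KRT17 overlapped in their libraries. With erlotinib the first 6 kept their order, and KRT17 (45.8), KRT5 (43.2), KRT3 (37.5) and KRT81 (19.97) followed. There KRT17 overlapped with KRT5, and KRT5 with KRT3. These levels were not corrected for reads lost in copied sequence, which differs between genes. Copies on the main chromosomes covered 41.1% of the 50-base windows of KRT8 and 34.95% of those of KRT18. For KRT7 and KRT19 the shares were 0.751% and 0.547%.

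KRT3 (Entrez gene 3850, chromosome 12, 52789685 to 52796117) is a type II keratin known from the corneal epithelium, where it pairs with KRT12. Its reads numbered 1, 1 and 2 in DMSO, and 119, 73 and 84 in Erlo4, Erlo5 and Erlo6. The signal was 1.13, 0.929 and 2.14 in DMSO and 109.8, 72.3 and 78.6 with erlotinib, so that the gene was nearly silent in DMSO and was read in every erlotinib library. The log2FC was 5.20 (SE 0.51), and a pseudocount of 10 gave 3.07. The ratio of summed reads, corrected for the size factors, was 63.1 with a 95% interval of 24.4 to 233, which covers counting error only. Its level with erlotinib, 86.9 ± 20.1 (SD, n = 3), was 37.5 per kilobase. Only 0.913% of its 100-base exon windows had a copy on the main chromosomes.

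The gene next to KRT3 moved with it. KRT4 (Entrez gene 3851, chromosome 12, 52806549 to 52814116), a type II keratin of non-cornified stratified epithelia such as the oesophagus, lies 10.4 kb from KRT3. It was not among the 10 genes, and its signal was 201, 182 and 200.1 in DMSO and 1249, 1111 and 1252 with erlotinib. KRT4 rose from 194 ± 10.7 to 1204 ± 80.7 (SD, n = 3 each), with log2FC 2.62, SE 0.11 and adjusted p = 1.0e-14 by limma (Benjamini-Hochberg). None of its 50-base exon windows had a copy on the main chromosomes. On the other side of KRT3, KRT76 lies 12.3 kb away and had a mean signal of 0.178 over the 6 libraries. Beyond KRT4, on its side of KRT3, KRT79 was listed at 0 and KRT78 had a mean of 5.65. Farther on that side, KRT8, 101 kb from KRT3, was lower with erlotinib.

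**Figure D3:**
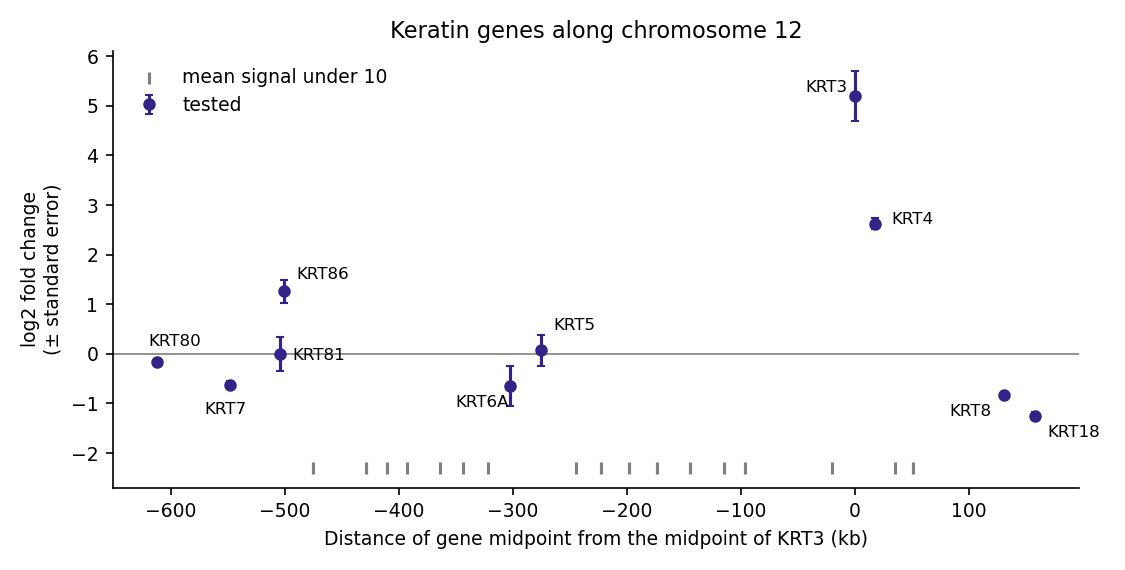
Log2FC (± standard error) of the keratin genes on chromosome 12 against the distance of each gene's midpoint from that of KRT3, in kb. Grey marks are keratin genes with a mean signal under 10, and KRT3 (5.20) stands beside KRT4 (2.62) while KRT8 and KRT18 lie at -0.83 and -1.25.

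The 250 bases before the start of KRT3, KRT4 and KRT5 are shown because the first pair are neighbours that were higher with erlotinib and KRT5 is a type II gene of the same cluster whose libraries overlapped. They are from RefSeq on GRCh38.p14, 5′ to 3′ on the minus strand, on which all 3 genes lie. KRT3 is chr12:52796118-52796367, KRT4 is chr12:52814117-52814366 and KRT5 is chr12:52520395-52520644. Capitals mark the letters TATAAA.
KRT3: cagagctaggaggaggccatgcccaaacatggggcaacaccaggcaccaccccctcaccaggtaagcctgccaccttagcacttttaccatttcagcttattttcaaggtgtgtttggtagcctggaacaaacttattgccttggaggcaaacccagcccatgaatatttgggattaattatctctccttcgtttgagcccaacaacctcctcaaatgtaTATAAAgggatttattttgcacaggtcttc
KRT4: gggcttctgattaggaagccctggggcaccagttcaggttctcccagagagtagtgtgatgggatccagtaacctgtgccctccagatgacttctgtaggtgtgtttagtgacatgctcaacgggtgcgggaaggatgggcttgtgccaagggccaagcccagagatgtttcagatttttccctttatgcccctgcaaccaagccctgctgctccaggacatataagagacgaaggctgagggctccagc
KRT5: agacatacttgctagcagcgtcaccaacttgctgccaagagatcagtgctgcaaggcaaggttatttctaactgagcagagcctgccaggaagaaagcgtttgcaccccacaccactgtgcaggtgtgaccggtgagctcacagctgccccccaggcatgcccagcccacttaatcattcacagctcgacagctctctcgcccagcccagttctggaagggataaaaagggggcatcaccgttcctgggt
In KRT3, TATAAA stood at positions -30 to -25 from the start, and KRT4 and KRT5 had no exact match to these letters. The window of KRT10, which fell with erlotinib and is not printed, held TATAAA at -29 to -24. The search covered both strands for TATAAA (the TATA box), TGANTCA (an AP-1 site), GGGCGG (a GC box) and GGAATG (a TEAD site). No match to the last 3 was found in the 3 printed windows or in those of KRT8 and KRT10. Of 35116 RefSeq windows of this length, 10.7% held TATAAA, 6.57% TGANTCA, 42.6% GGGCGG and 11.9% GGAATG. The GC content was 46.8% for KRT3, 54.8% for KRT4 and 56% for KRT5. A match is a description of letters, and a missing one says nothing of the factor.

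KRT15, KRT5, KRT17 and KRT81 are keratins of basal cells, of stressed or hair-follicle epithelium and of hair, and were sparse in HCC827. KRT15 (Entrez gene 3866, chromosome 17, 41513745 to 41518890), a type I keratin of basal cells, had a signal of 504, 435 and 549 in DMSO and 400.5, 348 and 366 with erlotinib. Its mean went from 496 ± 57.6 to 372 ± 26.5 (SD, n = 3 each), to 75.0% of DMSO, at a log2FC of -0.41 (SE 0.12). KRT5 (Entrez gene 3852, chromosome 12, 52514575 to 52520394), the type II keratin of basal cells, had a signal of 42.0, 124 and 146 in DMSO and 112, 90.1 and 87.99 with erlotinib. DMSO1 was far below the other DMSO libraries, and the erlotinib libraries fell between them. The mean was 104 ± 54.7 and 96.6 ± 13.1 (SD, n = 3 each), while the log2FC, from the mean of logs, was 0.07 (SE 0.32). Without DMSO1 the log2FC of KRT5 was -0.48.

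KRT17 (Entrez gene 3872, chromosome 17, 41619442 to 41624575), a type I keratin induced in stressed epithelium, had a signal of 49.9, 74.3 and 69.6 in DMSO and 67.4, 60.4 and 80.5 with erlotinib. Its log2FC was 0.11 (SE 0.25). KRT81 (Entrez gene 3887, chromosome 12, 52285913 to 52291534), a type II hair keratin, had a signal of 39.7, 29.7 and 41.7 in DMSO and 52.6, 38.6 and 24.3 with erlotinib. Its highest and its lowest value were both in erlotinib libraries, and its log2FC was 0.00 (SE 0.34). KRT81 lies wholly within the RefSeq span of KRT86, another hair keratin, and 40.1% of its 50-base exon windows were also found in KRT86. KRT86 rose from 43.8 ± 5.43 to 106 ± 9.66 (SD, n = 3 each), with log2FC 1.26, SE 0.23 and adjusted p = 6.6e-05 by limma. The ratio of KRT81 to KRT86 reads was 0.854 ± 0.179 in DMSO and 0.372 ± 0.169 with erlotinib, and because the genes share sequence their split of reads is uncertain.

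Of the 45 other keratin genes, 6 reached a mean of 10, and none of them is among the genes selected. KRT4 and KRT86 rose and KRT10 fell at an adjusted p under 0.05 (limma), where 35.3% of all tested genes were higher, 35.4% lower and 70.7% either. KRT10, the type I keratin of differentiating epidermis, fell from 1485 ± 136 to 949 ± 21.0 (SD, n = 3 each), with log2FC -0.64, SE 0.09 and adjusted p = 1.0e-06 by limma. The other 3 are keratins of basal and activated stratified epithelium. KRT14 had means of 58.8 and 57.3, with log2FC -0.03, SE 0.27 and adjusted p = 0.918 by limma. KRT16 had means of 19.7 and 18.7 and log2FC -0.07, SE 0.42 and adjusted p = 0.883 by limma. KRT6A had a signal of 21.6, 67.8 and 81.3 in DMSO and 25.8, 34.6 and 33.7 with erlotinib, for log2FC -0.65, SE 0.40 and adjusted p = 0.151 by limma. Without DMSO1 it was -1.23 (adjusted p = 0.0015, limma). Of 100-base exon windows, 10.2% of KRT14, 11.88% of KRT16 and 21.75% of KRT6A had a copy on the main chromosomes. Uniquely mapped counts can lose reads there, and the share lost was not tested. DMSO1 was the lowest DMSO library for KRT5, KRT6A, KRT14 and KRT17, but not for TP63, at 62.4 against 41.8 and 54.6.

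Of the pseudogenes listed in the table, KRT16P1 had the highest signal. It read 138, 127 and 122 in DMSO and 80.3, 54.4 and 64.6 with erlotinib, more than KRT16 itself. With the signal of listed pseudogenes added to their parent genes, KRT16 had a log2FC of -0.72 (adjusted p = 0.0014, limma). KRT19P2 read 12.5, 15.8 and 7.49 in DMSO and 5.54, 13.9 and 6.55 with erlotinib.

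**Figure D4:**
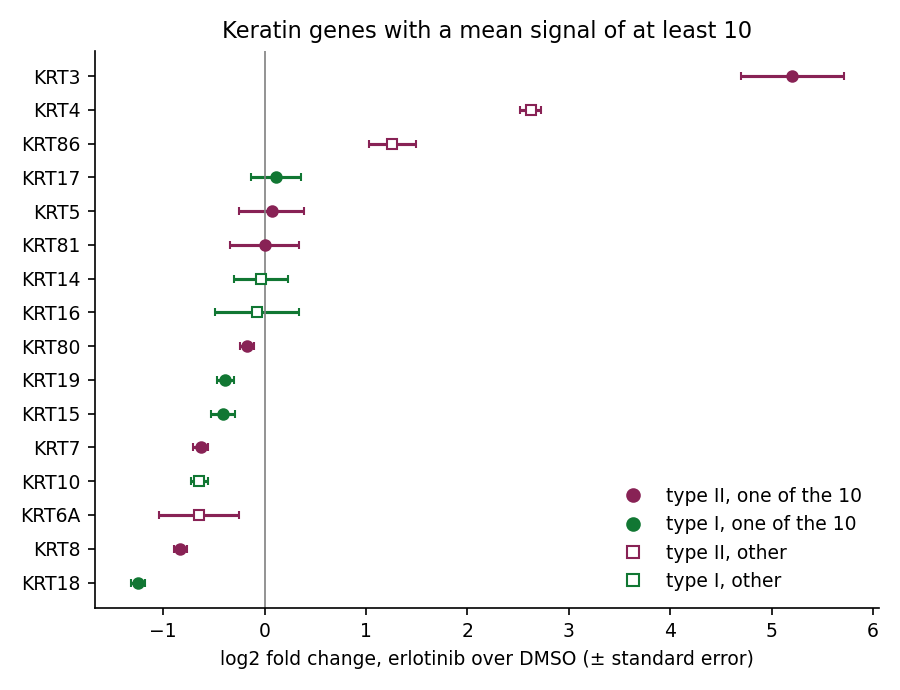
Log2FC of erlotinib over DMSO (± standard error) for the 16 keratin genes with a mean of at least 10, coloured by type, with filled points for the 10 genes chosen and open squares for the others. KRT3, KRT4 and KRT86 stand at 5.20, 2.62 and 1.26 and KRT18 at -1.25, and KRT80 (-0.17) became 0.008 with libraries scaled to their total count.

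The remaining keratin genes were near or at 0. Another 7 had reads but a mean under 10, and 32 had no read in any library. Of these 32, 8 (KRT12, KRT20, KRT23, KRT33A, KRT33B, KRT37, KRT39 and KRT40) had an identical copy of every 100-base exon window on an alternate contig of GRCh38. A further 3 were copied in part, KRT31 in 89.8%, KRT34 in 92.5% and KRT38 in 0.199% of windows, and 21 not at all. No keratin gene with reads was copied in full. Whether the genome used for mapping held the alternate contigs is not given in the sources used here, so the 8 genes are described only as listed at 0.

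Genes that work with keratins were counted at an adjusted p under 0.05 (limma), where 35.3% of all tested genes were higher, 35.4% lower and 70.7% either, and the median log2FC was 0.02. Keratins are held at desmosomes and hemidesmosomes by anchors and linkers, and 16 of 18 such genes were tested. In that list 8 rose, 4 fell and 4 did neither, with a median log2FC of 0.29. COL17A1, a hemidesmosomal collagen, rose from 709.7 ± 46.2 to 2042 ± 117 (log2FC 1.52, adjusted p = 1.2e-12, limma). EPPK1 (epiplakin, a keratin linker) rose by 1.23 and JUP (plakoglobin) by 1.06 on the log2 scale. ITGA6, the α6 integrin of hemidesmosomes, fell from 9207 ± 369 to 2335 ± 77.4 (log2FC -1.98, adjusted p = 3.9e-16, limma). PLEC (plectin, the most abundant of the list) fell by 0.51 and PKP3 (plakophilin 3) fell by 0.48. ITGB4, the partner of ITGA6 in hemidesmosomes, rose from 1201 ± 183 to 2135 ± 85.6 (adjusted p = 9.7e-08, limma). ITGB4 was named after its values were seen.

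Proteins that organise or bind keratins include 14-3-3 proteins, chaperones and a ubiquitin ligase adaptor. Of 10 tested genes of 12, 7 fell, 2 rose and 1 did neither, beside 35.4% lower and 35.3% higher over all tested genes, and the median log2FC was -0.65. SFN, the 14-3-3 sigma protein, which binds phosphorylated keratins, fell from 8737 ± 765 to 1533 ± 63.5 (log2FC -2.51, adjusted p = 7.6e-17, limma). TCHP (trichoplein) fell by 1.00 and PNN (pinin) fell by 0.98. KLHL24, a ubiquitin ligase adaptor that directs keratin turnover, rose from 276 ± 37.5 to 4132 ± 155 (log2FC 3.91, adjusted p = 7.5e-18, limma). TRADD, a death-domain adaptor that binds KRT18, rose by 0.63. FAM83H and YWHAE were listed at 0, and every 100-base exon window of both was copied on an alternate contig.

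Of 17 other intermediate filament genes, 10 were tested, 5 fell, 1 rose and 4 did neither, with a median log2FC of -0.33. Of all genes tested, 35.4% fell, 35.3% rose and 70.7% did either. The B-type nuclear lamins LMNB1 and LMNB2 fell by 2.24 and 1.66 on the log2 scale (adjusted p = 2.5e-16 and 1.4e-14, limma). IFFO2 fell by 1.04. BFSP1, a lens filament protein, rose from 50.4 ± 6.47 to 149 ± 6.10 (adjusted p = 1.2e-06, limma). VIM (vimentin), the filament gene of mesenchymal cells, had means of 375 and 342 (adjusted p = 0.361, limma). BFSP2 was listed at 0.

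Transcription factors linked to keratin genes included epithelial lineage factors and AP-1 subunits. Of 23 tested genes of 24, 15 rose, 3 fell and 5 did neither, with a median log2FC of 0.34, beside 35.3% higher and 35.4% lower over all tested genes. GRHL3, a grainyhead factor of stratified epithelia, rose from 15.7 ± 7.06 to 141 ± 2.04 (log2FC 3.18, adjusted p = 1.9e-08, limma). CEBPA rose by 2.06 and ELF3, an epithelial ETS factor, by 1.70. The AP-1 subunit FOSL1 fell from 15818 ± 1514 to 889 ± 20.8 (log2FC -4.15, adjusted p = 8.8e-20, limma), and FOS fell by 1.23. The other AP-1 subunits of the list, FOSL2, JUN, JUNB and JUND, rose by 0.77, 0.34, 0.86 and 0.93. KLF4 fell by 0.83. Genes of the cornified envelope, the protein shell of terminally differentiated squamous cells, were mostly too low to test, with 7 tested of 20. SPRR1B, TGM5 and SCEL fell by 1.70, 0.90 and 0.69, CNFN rose by 1.49, 3 did neither, and the median log2FC was -0.69. CNFN had a mean of only 9.06 in DMSO and 28.6 with erlotinib and passed the minimum only through the latter, and without Erlo4 it did not pass (log2FC 1.16, adjusted p = 0.0909, limma). LOR and CDSN were listed at 0, and 75.5% of the 100-base exon windows of CDSN were copied on an alternate contig.

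**Figure D5:**
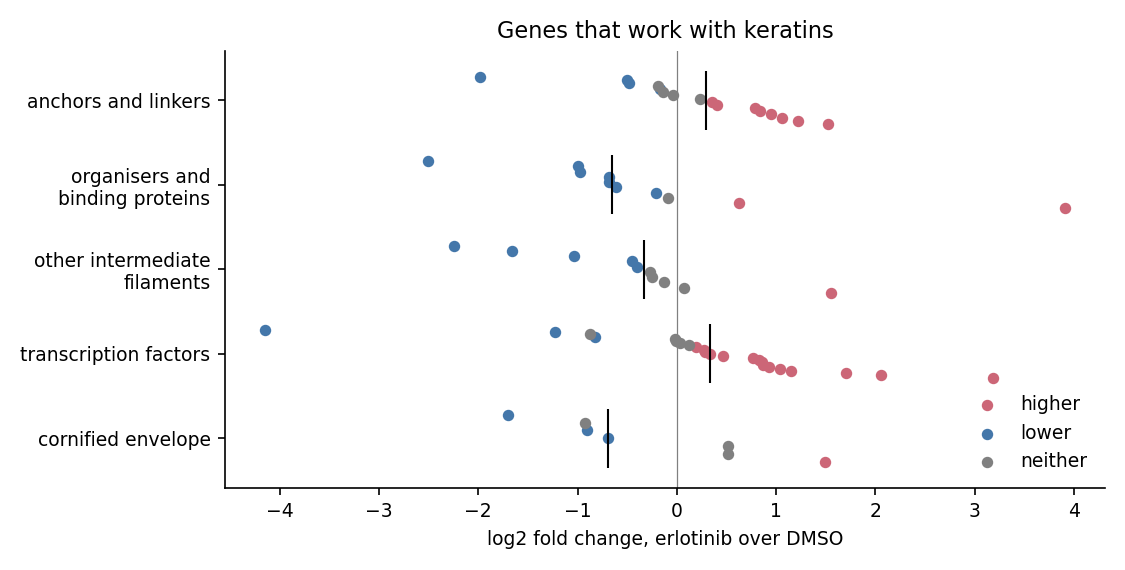
Log2FC of each tested gene in 5 lists of genes that work with keratins, coloured by call (adjusted p under 0.05, limma), with a black line at the median of each list. The median was 0.29 for anchors and linkers and -0.65 for organisers and binding proteins, and the extreme points are FOSL1 at -4.15 and KLHL24 at 3.91.

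Markers were read to check the labelled cell type and for other cells, and their counts stand beside 35.3% of all genes tested that rose, 35.4% that fell and 70.7% that did either. EPCAM, an epithelial surface protein, had a mean of 9852 ± 235 in DMSO and 9485 ± 281 under erlotinib (SD, n = 3 each). Of 9 markers of the lung epithelial line, 7 were tested, 4 rose and 1 fell, EGFR, which was also the most abundant. NKX2-1, the lung lineage factor, rose from 3002 ± 209 to 8644 ± 408 (adjusted p = 5.2e-14, limma), while the surfactant gene SFTPB had 8.23 and 10.5 and SFTPC was near 0. The 13 markers of basal and squamous cells summed to 1489.5, 1518 and 1563 in DMSO and 2423, 2634 and 2591 with erlotinib, with COL17A1 the most abundant. Of 6 tested, 1 rose (COL17A1, from 709.7 to 2042), 1 fell (S100A2, from 595 to 318) and 4 did neither. The rise of the sum is thus that of COL17A1 and is not read as a rise of the list. TP63, the basal cell factor, had means of 52.9 and 53.9. The 5 corneal markers summed to 9133, 7309 and 8468 in DMSO and 14101, 14369 and 13473 with erlotinib, most of it TKT, an enzyme that most cells use. Of 3 tested corneal markers, 2 rose, TKT and CLU, a secreted chaperone, which went from 100.1 ± 22.9 to 340.4 ± 26.9 (log2FC 1.78, adjusted p = 8.7e-09, limma). Their defining marker KRT12 was listed at 0, ALDH3A1 had 0.357 and 0.660, and PAX6, the eye lineage factor, had 22.1 ± 1.57 and 12.2 ± 4.70 (adjusted p = 0.106, limma).

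Markers of other cell types were low apart from CD68, and the share of all genes tested that rose was again 35.3%. Of 8 fibroblast markers 1 was tested and rose, COL1A1, and their sum was 73.7, 75.2 and 109 in DMSO and 260.2, 223 and 215 with erlotinib, with THY1 and POSTN listed at 0. Leukocyte markers summed to 2787, 2795 and 3172 in DMSO and 3241, 3538 and 3473 with erlotinib, nearly all of it CD68, a lysosomal protein, which rose as the only one of 7 tested. HLA-DRA was listed at 0 and is copied in full on an alternate contig. Endothelial markers summed to 34.0, 15.8 and 24.6 in DMSO and 58.1, 46.5 and 48.7 with erlotinib, and 2 of 5 were tested. PECAM1 led in DMSO (15.7 against 3.94 for VWF) and VWF with erlotinib (27.4 against 10.4). VWF passed the minimum mean of 10 only through its erlotinib libraries, with 3, 1 and 7 reads in DMSO, so its call as higher is not read as support. The part of these markers in the keratin values was not tested.

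The tested genes whose 6 values were most like those of a keratin were found by Euclidean distance between log2(signal + 1) values, each centred on its own mean. For KRT3 they were PRRT1B (distance 0.682), PIFO (0.753) and BMF (0.756). For KRT18 they were GOT2 (0.0927), EXOSC3 (0.0983) and GOT1 (0.124). For KRT17 they were HENMT1 (0.162), METTL25 (0.194) and GORAB (0.197), with log2FC of 0.06, 0.03 and 0.02. KRT17 was taken because it had the largest log2FC among members with a DMSO mean of at least 10. For KRT3 and KRT18 the measure follows the contrast of the conditions, with which the keratins were chosen. For KRT17, whose conditions overlapped, it follows small differences between libraries. In each case the likeness is a description.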

How the data were processed

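RNA-seq of HCC827 cells was performed with oligo(dT)-selected mRNA in 3 libraries per condition. Paired-end reads had been aligned by the authors to GRCh38 using Bowtie2 2.3.4 and uniquely mapped reads counted with featureCounts 1.6.3, and the submitters' processing notes also list DESeq2 1.18.1. The table is described as raw counts, but its deposited values are signal, reads divided by 1 size factor per library: 100% of values were whole multiples of 1 step per library within 0.01. Columns of the erlotinib libraries carry the numbers 4 to 6, which match no label number, so these libraries are known by group only. Replicates differed by more than counting error (chi-square over degrees of freedom 4.13 to 24.3). Bowtie2 does not split a read at an intron, so short exons can count for less.

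Two-sided tests were made with limma 3.58.1 (R 4.3.3) on log2(signal + 1) with a variance trend, over 14215 genes whose signal averaged at least 10, with Benjamini-Hochberg adjustment and a threshold of 0.05. No p-value is given for the 10 genes chosen, since their contrast was known. Members and lists were chosen with earlier results of these data known, and lists were written from general knowledge. Named genes were the 10 members, other keratins with a mean of at least 10, the highest pseudogene of each parent, the 3 largest rises and falls past the threshold in each list with a test, the most abundant gene and zero markers of each marker list, and the 3 nearest genes of KRT3, KRT17 and KRT18. Other names were chosen after their values were seen. Levels per kilobase used Ensembl canonical transcripts (GENCODE release 44). Copies were searched as exact 50-base and 100-base exon windows. Alternatives were edgeR 4.0.16 and DESeq2 1.42.0 on recovered reads, TMM factors, scaling to the total count, pseudocounts of 0.1 and 10, no filter, at least 10 reads in every library, each library left out, and pseudogenes summed with parents. The fits were tested on simulated data. Columns per sample left out numbered 0.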

Additional observations from a re-analysis of the deposited data

How the results depend on the processing

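There were 15 alternatives. With scaling to the total count, KRT7 became -0.45, KRT8 -0.65, KRT15 -0.23, KRT18 -1.07 and KRT19 -0.21, and the sign changed for KRT80 (0.008), KRT14 (0.14) and KRT16 (0.10). With each library left out in turn, KRT14 ranged from -0.21 to 0.12, KRT16 from -0.13 to 0.0201, KRT5 from -0.48 to 0.40, KRT17 from -0.06 to 0.22 and KRT81 from -0.25 to 0.29. Without DMSO1, KRT6A was -1.23, and with pseudogenes summed KRT16 was -0.72. The log2 fold change of KRT3 ranged from 3.07 (pseudocount 10) to 5.98 (DESeq2), and KRT3 could not be tested with at least 10 reads in every library. KRT4, KRT86 and KRT10 kept their direction and their side of the threshold under every alternative run.

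With no filter, 2 other intermediate filament genes were higher in place of 1, since more genes were tested. Of the cornified envelope genes, 0 were higher with at least 10 reads in every library, where CNFN was not tested, and between 0 and 1 with each library left out. At that filter (4 genes tested) and without Erlo4 (7 tested), limma gave 0 also at an unadjusted p under 0.05. With all 6 libraries and the usual filter, edgeR and DESeq2 each called 1 of 7, and neither was run in those other settings. Without Erlo4, CNFN was no longer past the threshold, and the cause was not tested. Genes lower over the whole table numbered 3955 to 5096 and genes higher 4354 to 6156. No paired analysis was possible because the erlotinib columns carry no number that the labels give. Depth limits KRT3 in DMSO, which rests on 4 reads.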
